A study of Mus musculus with 8 samples.

Results

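Cell cycle genes were measured in RNA flushed from the lumen of the thoracic aorta of 4 mice treated to delete Mef2c in endothelium, called EKO, and of 4 control mice. A list of 38 genes was taken, from replication factors to mitotic kinases and cell cycle inhibitors, and a gene was measured where a probe set of the array carried its symbol and no other. Of the 38, 36 were measured, out of 30063 genes in all. Ccnb1, the cyclin B1 gene, had no such probe set, and the Mcm7 probe set is shared with the microRNA genes Mir25 and Mir93, so neither has a value. EKO mice carried Cdh5-CreERT2, a tamoxifen-inducible recombinase driven by the promoter of the endothelial cadherin gene, and 2 floxed copies of Mef2c, the gene of a MADS-box transcription factor, and received 5 daily tamoxifen injections from 10 weeks of age. Control mice were littermates with the same alleles that received the vehicle, sunflower seed oil with 10% ethanol. All were female, all aortas were taken on day 14 after the first injection, and each array held 1 aorta. Since no control mouse had tamoxifen, the drug and the deletion cannot be told apart.

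Cells enter the cycle when cyclin D with CDK4 or CDK6, and then cyclin E with CDK2, phosphorylate the retinoblastoma family of pocket proteins and so release the E2F transcription factors that drive S phase genes. Mitotic genes are switched on later through the CHR promoter element, which the DREAM complex of pocket proteins occupies in resting cells. Endothelium of the adult aorta divides rarely, and inhibitors of the CIP/KIP and INK4 families hold CDKs in check.

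The members fell into 13 S phase genes, 13 mitotic genes, 4 genes of G1 cyclins and kinases, and 8 genes of inhibitors and pocket proteins. RefSeq promoter windows on GRCm38.p6, from 250 bases before the start of a transcript to 50 bases after it, were present for 31 of the 38 genes, 36 windows in all. The windows were searched on both strands for an E2F motif (TTTCCCGC, TTTCGCGC, TTTGCCGC or TTTGGCGC), for the CHR motif TTTGAA and for the CCAAT box CCAAT, which binds NF-Y. The 4 windows below are shown because they hold the motif typical of each phase, for a helicase gene pair of S phase and for a proliferation marker and a cyclin of mitosis. Each is written 5′ to 3′ on the strand of its gene, with the E2F motif (Mcm5 and Mcm6) or the CHR motif (Mki67 and Ccnb2) in capitals.
Mcm5: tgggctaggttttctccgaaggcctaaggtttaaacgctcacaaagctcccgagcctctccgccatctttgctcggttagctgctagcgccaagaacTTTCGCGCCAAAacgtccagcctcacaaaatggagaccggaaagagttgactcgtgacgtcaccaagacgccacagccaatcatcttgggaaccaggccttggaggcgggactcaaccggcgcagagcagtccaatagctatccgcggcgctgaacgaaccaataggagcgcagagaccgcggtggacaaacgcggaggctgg
Mcm6: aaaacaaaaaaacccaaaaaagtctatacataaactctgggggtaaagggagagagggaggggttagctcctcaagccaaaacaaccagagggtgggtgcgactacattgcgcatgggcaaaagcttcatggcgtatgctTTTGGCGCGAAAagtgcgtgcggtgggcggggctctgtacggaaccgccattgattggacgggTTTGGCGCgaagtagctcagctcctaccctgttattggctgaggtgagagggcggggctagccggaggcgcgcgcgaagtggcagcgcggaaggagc
Mki67: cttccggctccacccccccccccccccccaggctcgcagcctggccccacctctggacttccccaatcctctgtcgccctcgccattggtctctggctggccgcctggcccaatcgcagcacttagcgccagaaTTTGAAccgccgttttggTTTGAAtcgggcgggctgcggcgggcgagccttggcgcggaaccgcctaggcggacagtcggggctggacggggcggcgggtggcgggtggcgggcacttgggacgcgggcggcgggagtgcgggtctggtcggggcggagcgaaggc
Ccnb2: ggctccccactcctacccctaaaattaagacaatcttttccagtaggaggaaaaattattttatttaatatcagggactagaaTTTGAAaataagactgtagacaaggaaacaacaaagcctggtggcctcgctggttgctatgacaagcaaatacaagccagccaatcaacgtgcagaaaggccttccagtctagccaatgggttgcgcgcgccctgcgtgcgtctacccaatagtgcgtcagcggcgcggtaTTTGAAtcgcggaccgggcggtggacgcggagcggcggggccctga

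The Mcm5 window lies at chr8:75109259-75109558 on the plus strand, and the windows of Mcm6 (chr1:128359656-128359955), Mki67 (chr7:135716330-135716629) and Ccnb2 (chr9:70421505-70421804) on the minus strand. In Mcm5 and in the distal site of Mcm6 the E2F motif occurs on both strands at once, the copies overlapping by 4 bases. Counted from the start, with bases before it negative, the CHR motif began at -116 and -98 in Mki67 and at -167 and 5 in Ccnb2. The Ccnb2 window also holds 3 CCAAT boxes, which began at -87, -54 and -21. Among mitotic genes 8 of 11 windows held the CHR motif, or 72.7% (exact 95% binomial interval 39.0 to 94.0%), against 1 of 12 S phase windows (8.33%, that of Mcm2) and 17.9% of all 32851 windows. Among S phase genes 5 of 12 windows held the E2F motif, or 41.7% (15.2 to 72.3%), those of Mcm3, Mcm5, Mcm6, Mcm7 and Cdk2, against 1 of 11 mitotic windows (9.09%, that of Cdk1) and 2.26% of all windows. CCAAT boxes stood in 10 of 11 mitotic and 9 of 12 S phase windows, against 37.4% of all windows. Neither the E2F nor the CHR motif was in any of the 4 windows of G1 genes. A match is a run of letters and no measured binding.

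**Figure D1:**
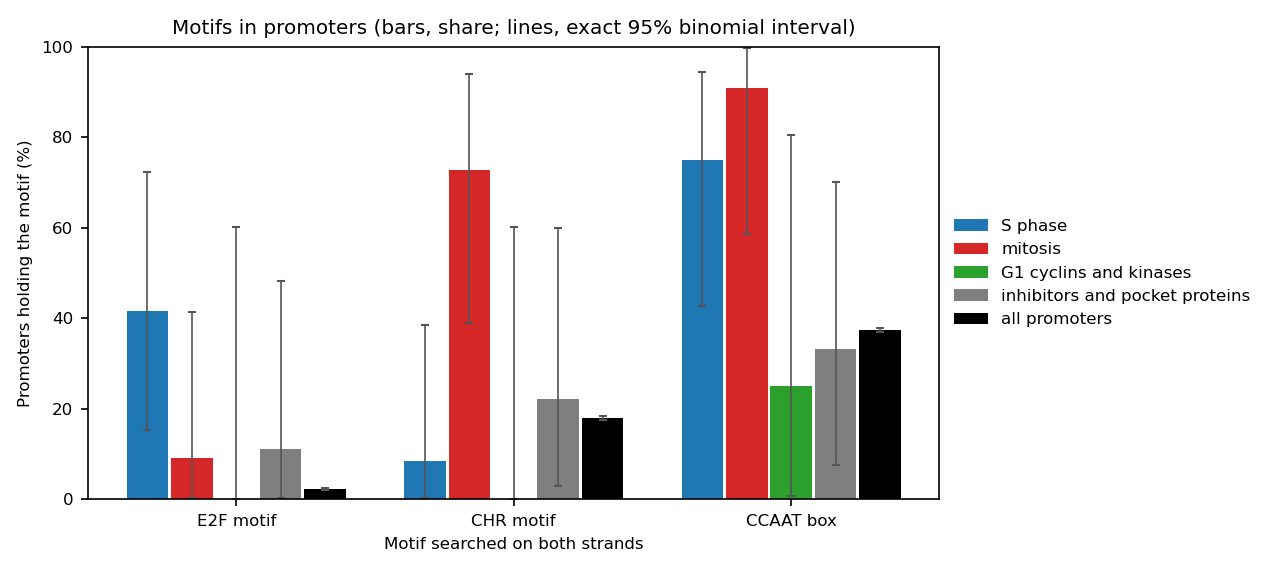
Share of promoter windows that hold the E2F motif, the CHR motif or the CCAAT box (y axis, percent) for S phase, mitotic, G1 and inhibitor genes and for all windows of the table; lines are exact 95% binomial intervals. The CHR motif stands in 72.7% of mitotic and 17.9% of all windows, and the E2F motif in 41.7% of S phase and 2.26% of all windows.

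The values are log2 expression on Affymetrix arrays. The 8 arrays had similar medians over all probe sets (6.10 to 6.24 in EKO arrays and 6.06 to 6.15 in control arrays), and no 2 arrays were identical. The endothelial markers Pecam1 (18.1 to 18.2) and Cdh5 (16.2 to 16.5) were high on all arrays, while Kdr (6.42 to 7.22) and Robo4 (5.93 to 6.54) lay below the median of the negative control probe sets. The mean of the 7 adipocyte markers ranged from 8.001 to 10.1 in EKO and from 8.40 to 10.8 in control arrays, that of the 7 neutrophil markers from 6.40 to 8.62 and from 5.99 to 7.39, and that of the 3 measured erythroid markers from 8.57 to 8.95 and from 8.73 to 9.86. Ucp1, the uncoupling protein gene of brown adipocytes, spanned 11.14 to 16.73. In bulk RNA, fewer cells of a type and less RNA per cell cannot be told apart. Mef2c read 9.56, 9.73, 9.66 and 10.03 on EKO arrays and 9.62, 9.79, 9.88 and 9.80 on control arrays (limma adjusted p = 0.946). Its single probe set covers the whole transcript cluster, so it does not check the deletion.

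Most mitotic genes read below the median of the negative controls on all arrays, whereas G1 genes and several inhibitors read well above it. The array carries 5222 control probe sets marked neg, with medians of 7.34 to 7.45 on the 8 arrays and 95th percentiles of 11.5 to 11.8. These controls are no floor, since their median lay above that of all probe sets (6.06 to 6.24). It also lay above the median of the GC-matched background probe sets (3.63 to 3.75). The highest of those, a level added after seeing the data, was exceeded on some arrays by 9 of 12 mitotic genes and on none by 3. The 95th percentile is a high bar, passed on all 8 arrays by 5.40% of all genes and by 1 of the 36 members, the cyclin D2 gene Ccnd2. Pcna, the sliding clamp of DNA polymerase, passed it on 7 arrays and the pocket protein gene Rb1 on 4. Rb1 has 3 probe sets, and its level here is that of the one with the highest mean. The median of the negative controls was passed on all 8 arrays by 34.5% of all genes. Of the members 15 passed it on all 8 arrays, namely 6 of 12 S phase genes, 4 of 4 G1 genes, 5 of 8 inhibitor and pocket protein genes and 0 of 12 mitotic genes. A probe set at the level of a control can still carry some true signal, so this says only that the signal did not stand out from the controls.

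Among mitotic genes Mki67, the Ki-67 gene expressed in cycling cells, and the ubiquitin-conjugating enzyme gene Ube2c exceeded the median of the negative controls on 6 of 8 arrays each. The cyclin A2 gene Ccna2 and the polo-like kinase gene Plk1 exceeded it on 3. Top2a, Ccnb2, Cdk1, Aurka, Aurkb, Bub1, Cdc20 and Birc5 did not exceed it on any array. Their highest percentile among the negative controls was 45.4 for the topoisomerase gene Top2a, and 20.2 for Aurkb, which encodes a kinase of the chromosomal passenger complex. The S phase genes were divided in this respect. The helicase genes Mcm3, Mcm4 and Mcm5, Pcna, the thymidylate synthase gene Tyms and Cdk2 exceeded the median on all 8 arrays. The transcription factor gene E2f1, the ribonucleotide reductase gene Rrm2 and the cyclin E1 gene Ccne1 did so on none. Cdkn2a, Cdkn2b and Cdkn2c, genes of INK4 inhibitors, likewise lay below the median on all arrays, between the 11.2 and 23.4 percentiles. The CIP/KIP genes Cdkn1a (p21), Cdkn1b (p27) and Cdkn1c (p57) and the pocket protein genes Rb1 and Rbl2 lay above it on all arrays, between the 60.9 and 95.9 percentiles. Probe sets differ in their response, so these positions rank no gene above another.

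**Figure D2:**
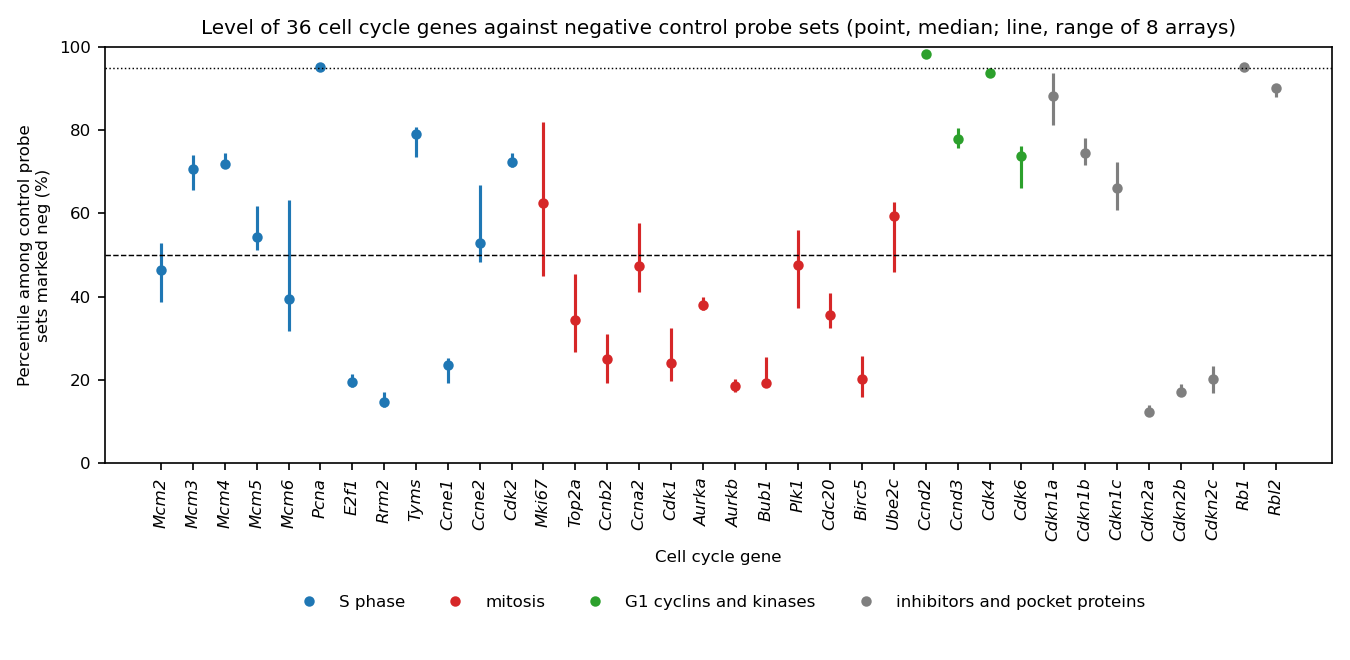
Percentile of each of the 36 measured genes among the 5222 control probe sets marked neg (y axis, percent); points are medians and lines ranges over the 8 arrays, and the dashed and dotted lines mark the 50th and 95th percentiles. None of the 12 mitotic genes lies above the 50th percentile on all 8 arrays, while all 4 G1 genes do.

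No cell cycle gene passed the test between EKO and control aortas. Of the 36 measured members, 25 passed the filter on level (a mean over the 8 arrays above 6.14, the median of all probe sets) and were tested with limma among 16232 genes: 9 of 12 S phase genes, 7 of 12 mitotic genes, all 4 G1 genes and 5 of 8 inhibitor and pocket protein genes. None of the 25 passed an adjusted p of 0.05 (smallest limma adjusted p = 0.545), and neither did any gene of the table (percent called 0.0). At an unadjusted p under 0.05 there was 1 member, the cyclin E2 gene Ccne2, which was lower, where 3.51% of all genes tested were lower, 5.42% higher and 8.93% either at that p. The values of the 2 groups overlapped in all 25 tested members, where they did not overlap in 6.08% of all genes tested (2.67% lower, 3.41% higher). Of the 25, 17 were lower (68.0%) and 8 higher in EKO aortas, where 55.1% of all genes tested were lower. The 11 members below the filter had limma adjusted p values of 0.679 or more in a fit without the filter.

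By class, the median difference of the tested members, EKO minus control on the log2 scale, was -0.012 for S phase genes (3 higher, 6 lower), -0.042 for mitotic genes (3 higher, 4 lower), -0.069 for G1 genes (1 higher, 3 lower) and -0.043 for inhibitors and pocket proteins (1 higher, 4 lower), against -0.019 over all genes tested. The 5 mitotic genes below the filter were all higher, so that over all 12 measured mitotic genes the median was 0.023 (8 higher, 4 lower), of the opposite sign. Over all 36 measured members it was -0.0064 (17 higher, 19 lower), and over all genes with no filter 0.033. Intervals were narrow for genes such as Mcm4, at -0.00037 (SE 0.071, 95% interval -0.16 to 0.16), Cdk4, the kinase of cyclin D, at -0.044 (-0.22 to 0.14), and Pcna, at 0.00077 (-0.22 to 0.23). They were wide for Mki67, at -0.24 (-1.73 to 1.25), Mcm6, at 0.22 (-0.99 to 1.44), and Cdkn1a, at -0.021 (-0.94 to 0.90), intervals that hold differences of either sign. Single arrays moved the class medians. Without EKO array 2 the mitotic median was -0.15 and the S phase median -0.085, and without EKO array 3 they were 0.051 and 0.037.

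**Figure D3:**
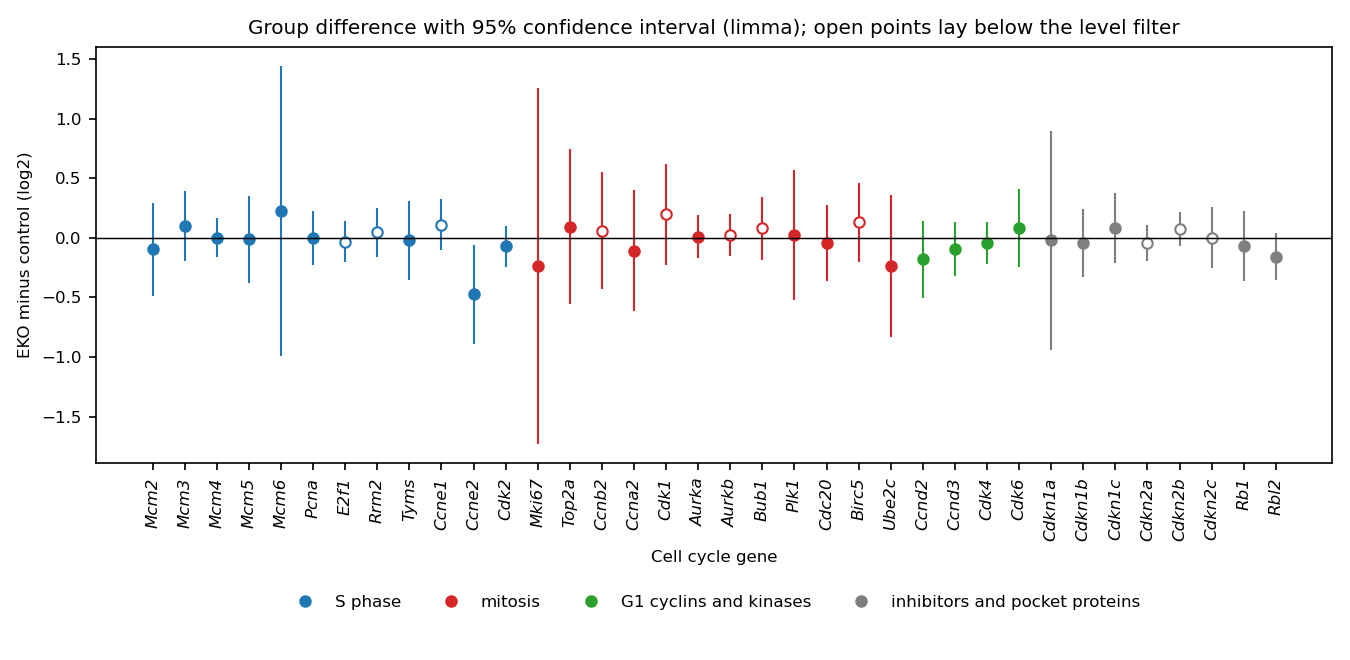
Difference between EKO and control aortas in log2 expression (y axis) for each of the 36 measured genes, with 95% confidence intervals from limma (4 arrays per group); open points are the 11 genes below the filter on level. Ccne2, at -0.47, is the single gene whose interval excludes 0 before adjustment, and Mki67, Mcm6 and Cdkn1a have the widest intervals.

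Mitotic genes tended to be highest on the same array within each group and, in the EKO group, lowest on the same array. Mki67 read 8.32, 9.72, 7.10 and 7.93 on EKO arrays 1 to 4 and 7.89, 7.28, 9.21 and 9.64 on control arrays 1 to 4. It thus ran highest on EKO array 2 and control arrays 3 and 4, lowest on EKO array 3 and control array 2, and the groups covered the same range. From lowest to highest array this is a 6.15-fold range, and its SD over the 8 arrays was larger than that of 99.5% of the genes tested. Top2a read 6.86, 7.19, 6.10 and 6.14 on EKO arrays and 6.28, 6.05, 6.68 and 6.92 on control arrays. Ccna2 read 7.34, 7.70, 6.87 and 7.14 on EKO arrays and 7.05, 7.09, 7.51 and 7.84 on control arrays. Both were highest on EKO array 2 in their EKO group and on control array 4 in their control group, as Mki67 was.

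Of the 12 measured mitotic genes, 11 had their highest EKO value on EKO array 2 and 11 their lowest on EKO array 3, and 10 had their highest control value on control array 4. Their lowest control value was divided, on control array 1 for 6 genes, array 2 for 5 and array 3 for 1. All 12 stood above their own mean over the 8 arrays on EKO array 2, and 0 did so on EKO arrays 3 and 4. The shares of all genes with these highest and lowest arrays were not counted. EKO arrays 2 and 3 had the highest medians over all probe sets (6.24 and 6.19). Averaged over the 12 genes, each set to its own mean, the mitotic class stood at 0.092, 0.46, -0.37 and -0.18 on EKO arrays 1 to 4 and at -0.12, -0.31, 0.11 and 0.32 on control arrays 1 to 4. The S phase class moved less, at 0.097, 0.20, -0.16 and -0.17 on EKO arrays and 0.010, -0.14, 0.076 and 0.090 on control arrays. Inhibitors and pocket proteins stood at 0.088, -0.16, -0.00084 and 0.026 on EKO arrays and -0.069, -0.027, 0.077 and 0.062 on control arrays. The average of these 8 genes was lowest on EKO array 2, where the mitotic genes were highest. Yet 3 of the 8 stood above their own mean there, as on control arrays 1, 2 and 3. Cdkn1a weighed on that average, at 9.67 on EKO array 2 against a mean of 10.4 over all arrays.

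**Figure D4:**
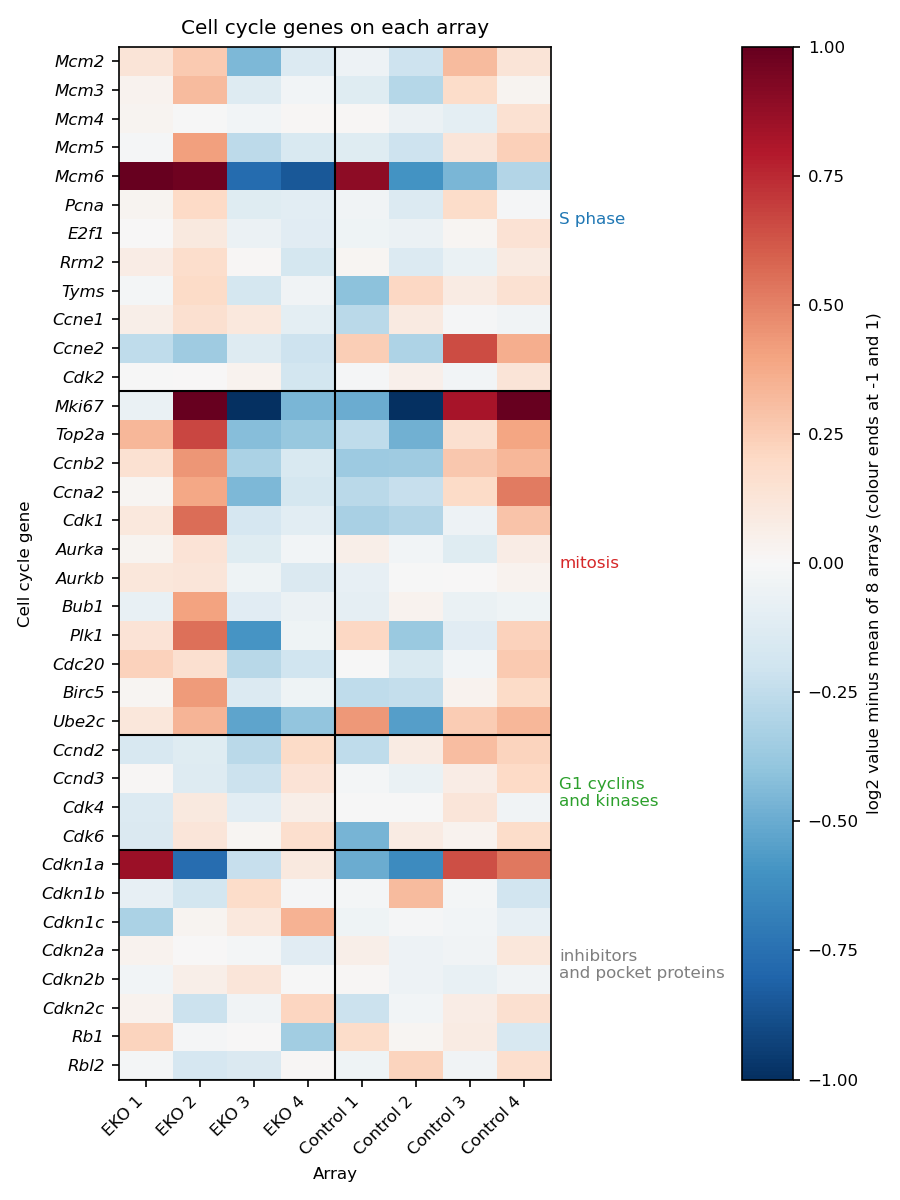
Deviation of each measured gene from its own mean over the 8 arrays (colour, log2; red above, blue below), with EKO arrays on the left and control arrays on the right. All 12 mitotic genes are above their mean on EKO array 2 and none is on EKO arrays 3 and 4, and within the control group 10 of 12 peak on array 4.

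Each other member was set against Mki67, and each member against the mean of the adipocyte, erythroid and neutrophil markers, which gave 143 relations over the 8 arrays, each with an exact permutation p over the 40320 orders of the arrays and Benjamini-Hochberg adjustment over all 143. With Mki67, 2 relations passed. Mcm5, a subunit of the replicative helicase, read 7.70, 8.12, 7.46 and 7.56 on EKO arrays and 7.59, 7.51, 7.84 and 7.95 on control arrays. It followed Mki67 with Pearson r = 0.97 (exact permutation p = 4.96e-05, adjusted 0.00709) and Spearman rho = 0.98 (p = 0.000397, adjusted 0.0567). Without the 2 arrays farthest from the median of Mki67 its r was 0.98. Within EKO arrays it was 0.985 and within control arrays 0.997. Ccna2 followed with r = 0.97 (exact permutation p = 0.000223, adjusted 0.0160), rho = 0.95 (adjusted 0.0816) and r = 0.94 without those 2 arrays. Only the Pearson values passed for these genes, and their rank correlations did not.

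Further S phase and mitotic genes had large coefficients with Mki67 that did not pass the adjustment. Among S phase genes Mcm2 stood at 0.89, E2f1 at 0.87, Mcm3 at 0.86 and Pcna at 0.82, and among mitotic genes Ccnb2 at 0.95, Top2a at 0.91, Birc5 at 0.87 and Cdk1 at 0.83, with adjusted exact permutation p values of 0.0520 to 0.130. The remaining mitotic genes stood at 0.51 (Aurka and Bub1), 0.56 (Aurkb) and 0.77 (Plk1, Cdc20 and Ube2c), and the remaining S phase genes at 0.10 to 0.58. Without the 2 farthest arrays, E2f1 (0.65), Cdk1 (0.56), Birc5 (0.72), Top2a (0.80) and Ccnb2 (0.89) were lower. Mcm2 (0.96), Mcm3 (0.91) and Pcna (0.95) were higher, while Aurka (-0.098), Bub1 (-0.15) and Aurkb (0.27) were near or below 0.3. Cdkn1b, the p27 inhibitor gene, ran opposite to Mki67. It read 8.91, 8.81, 9.18 and 8.98 on EKO arrays and 8.98, 9.31, 8.97 and 8.80 on control arrays, so that the 2 arrays highest in Mki67, EKO array 2 and control array 4, were the 2 lowest in Cdkn1b (r = -0.86, exact permutation p = 0.00437, adjusted 0.0627; rho = -0.90, adjusted 0.0816; r = -0.73 without the 2 farthest arrays). G1 genes had coefficients of 0.31 to 0.48.

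Other genes of the cycle were counted by their correlation with Mki67. Of 17 tested genes of the spindle, kinetochore and cytokinesis, 8 had r of at least 0.8 with Mki67 (47.1%), and of 29 tested genes of origin licensing and replication 4 did (13.8%), against 0.936% of all genes tested other than Mki67. In lists of E2F, pocket and DREAM proteins and of APC/C and SCF ubiquitin ligases 1 of 14 and 0 of 18 did. In lists of mitotic entry and of other CDK inhibitors with the CDK-activating kinase 1 of 5 did in each. The median r with Mki67 was 0.705 in the spindle list and -0.024 in the mitotic entry list. The values rest on the same 8 arrays and are given as a description. Besides Mcm5 and Ccna2, the genes most like Mki67 were Kif20a, a mitotic kinesin gene, at r = 0.96, the lysosomal mannosidase gene Manba at 0.96 and the carbonic anhydrase gene Car5b at 0.94, chosen after their values were seen. Neutrophil markers were highest on EKO array 2 too. Their mean read 6.40, 8.62, 6.73 and 7.02 on EKO arrays and 6.37, 5.99, 6.77 and 7.39 on control arrays. Its r with Mki67 was 0.73 (exact permutation p = 0.0247, adjusted 0.184), with rho = 0.76 (adjusted 0.277). Its r was 0.52 without the 2 arrays farthest from its median, 0.81 within EKO arrays and 0.96 within control arrays. None of its relations with members passed the adjustment, the nearest being Birc5, the survivin gene (r = 0.91, exact permutation p = 0.00228, adjusted 0.0567; rho = 0.86). Of the 7 neutrophil markers 0 exceeded the median of the negative controls on all arrays, and 3 (Ltf, Camp and Ly6g) lay below it on all. On EKO array 2, where that median was 7.44, S100a8 read 11.3, S100a9 10.9, Retnlg 9.02 and Ngp 8.60. Of the 6 measured lymphocyte markers 0 exceeded the median on all arrays. The part of neutrophils and lymphocytes in the mitotic signal was not tested.

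**Figure D5:**
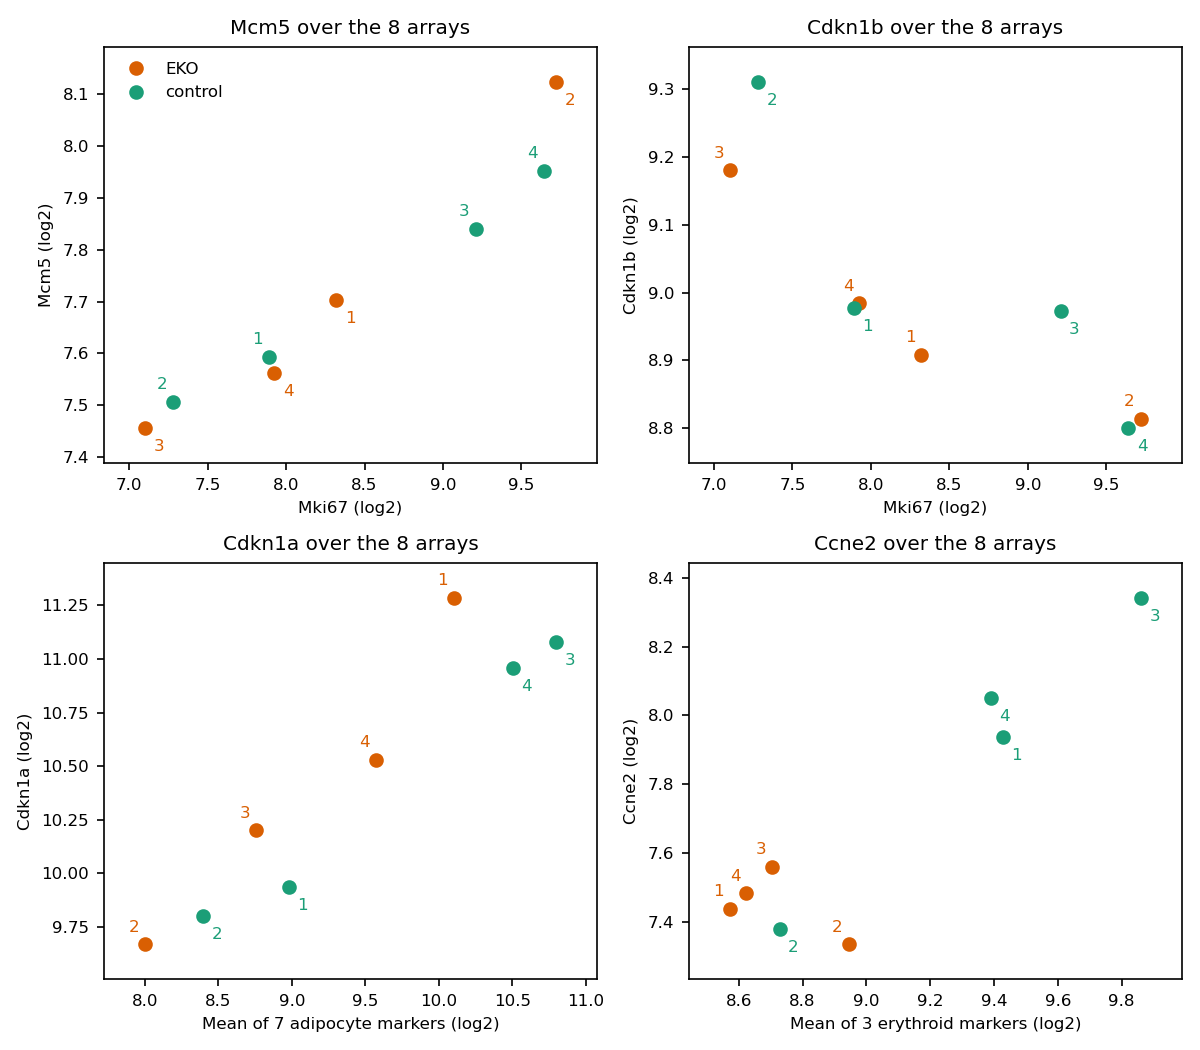
Log2 values of Mcm5 and Cdkn1b against Mki67 (top), of Cdkn1a against the mean of 7 adipocyte markers and of Ccne2 against the mean of 3 erythroid markers (bottom); each point is 1 array with its number, orange for EKO and green for control. Mcm5 is higher and Cdkn1b lower where Mki67 is higher, Cdkn1a is higher where the adipocyte markers are, and the Ccne2 points of all EKO arrays lie beside that of control array 2.

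Cdkn1a, the gene of the p53-responsive inhibitor p21, had a wide spread within both groups and means close to each other. It read 11.29, 9.67, 10.20 and 10.53 on EKO arrays and 9.94, 9.80, 11.08 and 10.96 on control arrays, a 3.07-fold range with an SD above that of 97.6% of the genes tested. EKO array 1 and control arrays 3 and 4 were high, EKO array 2 and control arrays 1 and 2 were low, and the groups overlapped (10.42 ± 0.68 in EKO and 10.44 ± 0.67 in control aortas, SD, n = 4 each, limma adjusted p = 0.990). The adipocyte marker mean read 10.1, 8.001, 8.76 and 9.57 on EKO arrays and 8.98, 8.40, 10.8 and 10.5 on control arrays. Its r with Cdkn1a was 0.94 (exact permutation p = 0.00179, adjusted 0.0567), with rho = 0.90 (adjusted 0.0816), and it was 0.92 without the 2 arrays farthest from its median. Within EKO arrays r was 0.97 and within control arrays 0.99. With Mki67 the r of Cdkn1a was 0.29 (exact permutation p = 0.461, rho = 0.17). Of the genes tested, 2.11% had r of at least 0.9 with Cdkn1a, and among named genes Galm, Otop1 and Aifm1 were most alike (r = 0.99, 0.98 and 0.98 over the 8 arrays, genes chosen after their values were seen).

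Ccne2 had the smallest p of the members. The cyclin E2 gene, whose product activates CDK2 at the start of S phase, read 7.44, 7.34, 7.56 and 7.48 on EKO arrays and 7.94, 7.38, 8.34 and 8.05 on control arrays. The 4 EKO arrays lay close together with control array 2, and the other control arrays lay above them. The means were 7.45 ± 0.094 in EKO and 7.93 ± 0.40 in control aortas (SD, n = 4 each). EKO minus control was -0.47 (SE 0.18, 95% interval -0.89 to -0.058, limma unadjusted p = 0.0299, adjusted p = 0.545), or 0.72-fold. The difference was -0.66 without control array 2 and -0.33 without control array 3. Of the 3 erythroid markers measured, Alas2 and Slc4a1 were, like Ccne2, highest on control arrays 1, 3 and 4, and Klf1 was not. Their order among EKO arrays differed, with Slc4a1 highest on EKO array 2, where Ccne2 was lowest. Alas2, the erythroid enzyme of haem synthesis, read 12.9, 13.6, 13.6 and 13.4 on EKO arrays and 14.8, 13.3, 15.2 and 14.3 on control arrays, again with control array 2 beside the EKO arrays. Slc4a1, the band 3 gene, read 7.78, 7.98, 7.43 and 7.48 on EKO arrays and 8.39, 7.76, 9.22 and 8.70 on control arrays.

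Over the 8 arrays the erythroid marker mean and Ccne2 had r = 0.93 (exact permutation p = 0.00531, adjusted 0.0627) and rho = 0.60 (p = 0.132), with r = 0.79 without the 2 arrays farthest from the median. Within control arrays r was 0.99 and within EKO arrays, which spanned a small range of both, -0.62. Klf1, an erythroid transcription factor gene, read 5.00, 5.29, 5.10 and 4.96 on EKO arrays and 5.09, 5.09, 5.21 and 5.14 on control arrays. It was highest on EKO array 2 and lay below the median of the negative controls on all arrays. Among named genes most like Ccne2 were Ell2 (r = 0.99), the mitochondrial carrier gene Slc25a39 (0.98), the ubiquitin ligase gene Marchf2 (0.98) and the ferritin receptor gene Ncoa4 (0.97), chosen after their values were seen. The part of erythroid RNA in the Ccne2 difference was not tested.

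Mcm6, which encodes another subunit of the same helicase as Mcm5, was high on 3 arrays. It read 8.24, 8.11, 6.37 and 6.29 on EKO arrays and 8.04, 6.55, 6.68 and 6.85 on control arrays. EKO arrays 1 and 2 and control array 1 lay at 8.04 to 8.24 and the other 5 arrays at 6.29 to 6.85, with no array between. The SD exceeded that of 98.98% of the genes tested, while Mcm4 had a lower SD than most (6.77 percentile). Mcm6 followed neither Mki67 (r = 0.35, exact permutation p = 0.385, rho = 0.55) nor the marker means of adipocytes (-0.16), erythroid cells (0.023) or neutrophils (0.24). The named genes most like it, again chosen after their values were seen, began with Pfkfb3, which encodes a regulator of glycolysis (r = 0.98 over the 8 arrays). Ifi211 (0.96), Eya2 (0.96), Cep85 (0.95), Ifi204 (0.95) and Usp24 (0.95) came next. Ifi211 and Ifi204 are interferon-inducible p200 family genes and lie on chromosome 1, as Mcm6 does. The others lie elsewhere, Pfkfb3 and Eya2 on chromosome 2 and Cep85 and Usp24 on chromosome 4. Ifi204 read 8.55, 8.51, 6.70 and 7.0004 on EKO arrays and 8.15, 6.39, 6.77 and 6.89 on control arrays, high on the same 3 arrays as Mcm6.

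Ccnd2 read 13.3, 13.4, 13.2 and 13.7 on EKO arrays and 13.2, 13.6, 13.8 and 13.7 on control arrays, a difference of -0.18 (SE 0.14, limma adjusted p = 0.691). Cdk4 read 11.2, 11.5, 11.2 and 11.4 on EKO arrays and 11.4, 11.4, 11.5 and 11.3 on control arrays. The groups overlapped in both of these G1 genes. Rbl2, the pocket protein p130 that binds E2F4 in resting cells, read 10.60, 10.45, 10.48 and 10.63 on EKO arrays and 10.58, 10.84, 10.58 and 10.78 on control arrays. The 2 lowest values and the 2 highest belonged to different groups, with overlap between (difference -0.16, SE 0.087, limma adjusted p = 0.613). Rb1 differed by -0.065, Ccnd3 by -0.094, Cdk6 by 0.081, Cdkn1c by 0.082 and Cdkn1b by -0.043. Ube2c, at -0.23 (SE 0.26, limma adjusted p = 0.782), had the next largest difference of the mitotic genes after Mki67, and its 2 lowest EKO values (7.23 and 7.35) stood beside a control value of 7.20. Plk1, Aurka and Cdc20 differed by 0.025, 0.0095 and -0.042, Cdk2 by -0.072, Tyms by -0.020, Mcm2 by -0.096 and Mcm3 by 0.098.

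Other genes of the cycle, in 6 lists with 88 tested genes, had 0 genes past an adjusted p of 0.05 in either direction, and 6 of the 88 at an unadjusted p under 0.05, which 8.93% of all genes tested reached. The lists' median differences lay between -0.079 and -0.013, against -0.019 over all genes tested. Cdkn3, a CDK-associated phosphatase gene, read 7.06, 7.52, 6.76 and 6.84 on EKO arrays and 7.76, 7.48, 8.29 and 7.71 on control arrays. It had the largest difference among the genes named here, at -0.76 (SE 0.21, limma adjusted p = 0.499), and the groups overlapped by EKO array 2 and control array 2. Among replication genes Pold1, of DNA polymerase delta, stood at 0.22 and the clamp loader gene Rfc2 at -0.21. Cdc26, a subunit of the anaphase-promoting complex, stood at -0.30 and Cdc16, another, at -0.21. Tfdp2, the dimerization partner of E2F proteins, read 10.01, 10.21, 10.17 and 10.15 on EKO arrays, below all control values of 10.37, 10.41, 10.28 and 10.38 (difference -0.23, SE 0.069, limma adjusted p = 0.511). Of the spindle list Incenp stood at 0.14 and Pttg1, the securin gene, at -0.30.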

How the data were processed

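RNA from 8 aortas, 1 per array, was amplified from 5 ng and hybridised to Affymetrix Mouse Transcriptome arrays. The deposited log2 values are the authors' SST-RMA output (Expression Console software, per the labels), which includes quantile normalization and 1 summary value per transcript cluster, so a single exon or splice form is not resolved. The aligned build and probe annotation are not given in the sources used here. Precision is limited by the 4 arrays per group, and nothing marks a batch.

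Of 72688 probe sets, 30604 carried 1 gene symbol in the platform table, 2146 several and 33206 were not listed. Of these symbols 1135 were updated through RefSeq. For each of 30063 genes the probe set with the highest mean was kept. EKO minus control was fitted with limma 3.58.1 in R 4.3.3 (lmFit, eBayes) over 16232 genes whose mean over all arrays exceeded 6.14, p-values adjusted by Benjamini-Hochberg and called under 0.05. On simulated data of the same size, in which 200 genes were changed, 82% of those changed by 1 log2 unit and 96% of those changed by 2 were called. Whether these rates hold for single members was not tested. The limma SE was 0.65 for Mki67, 0.53 for Mcm6 and 0.40 for Cdkn1a, against 0.071 for Mcm4. Correlations used exact permutation computed with NumPy 2.4.6, with ranks and Benjamini-Hochberg adjustment from SciPy 1.17.1. Promoters are RefSeq's, on GRCm38.p6.

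The members and lists were chosen with earlier results of these data known. Named genes were all measured members, the 2 genes of each list with the smallest p in each direction, of which some are printed, Mef2c and markers. Alternatives were other filters, probe set rules and normalizations, unmoderated variance, a replicate block, each array left out, other background levels and a shorter promoter window. Correlations of same-numbered arrays were -0.16, 0.21, -0.24 and 0.13, and those of differently numbered arrays ran from -0.40 to 0.46. So few values cannot exclude a pairing by replicate number, and the main fit used none.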

Additional observations from a re-analysis of the deposited data

Results flagged for a closer look

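Bub1, a kinase gene of the spindle checkpoint, stood apart on 1 array. Its value on EKO array 2 was 5.92, while the other EKO arrays lay between 5.40 and 5.45, so the gap to the nearest array took 0.893 of the group's range, above Dixon's critical value of 0.829 for 4 samples. In 72 groups checked this was the only such value, where chance flags about 1 in 20. Control arrays lay between 5.42 and 5.55. EKO array 2 was also the highest EKO array for 11 of the 12 measured mitotic genes and for the neutrophil marker mean, at 8.62. Bub1 lay below the median of the negative controls on all 8 arrays.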

How the results depend on the processing

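No member and no gene passed the adjusted threshold in any setting, in limma or with unmoderated variance. At an unadjusted p under 0.05 there were 1449 genes and 1 member in limma, 1469 genes and 0 members with unmoderated variance, and 2714 genes and 1 member with no filter. With the replicate block, 0 members were called, the smallest member adjusted p was 0.597 and 1259 genes had an unadjusted p under 0.05. With 1 array left out, the smallest member adjusted p ranged from 0.413 to 0.846.

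Outside the arrays left out, 145 of 153 member differences kept their sign. Most of these could not turn, since other filters, unmoderated variance and the replicate block leave a member's difference unchanged. Taking the mean of all probe sets changed Rb1 alone. All 8 turns came with quantile normalization or with centring on the array median. With quantile normalization the difference was 0.029 for Mcm4, 0.017 for Tyms, -0.033 for Aurka and 0.011 for Cdkn1a, and with centring on the array median it was 0.035 for Mcm4, 0.023 for Mcm5, 0.015 for Tyms and 0.014 for Cdkn1a. With 1 array left out, 155 of 200 kept their sign, and 17 members turned at least once. Their differences ranged from -0.20 to 0.037 for Mcm2, -0.033 to 0.050 for Mcm4, -0.15 to 0.073 for Mcm5, -0.10 to 0.56 for Mcm6, -0.065 to 0.061 for Pcna, -0.16 to 0.047 for Tyms, -0.72 to 0.15 for Mki67, -0.11 to 0.25 for Top2a, -0.25 to 0.048 for Ccna2, -0.033 to 0.051 for Aurka, -0.15 to 0.23 for Plk1, -0.13 to 0.043 for Cdc20, -0.059 to 0.16 for Cdk6, -0.31 to 0.23 for Cdkn1a, -0.12 to 0.055 for Cdkn1b, -0.021 to 0.20 for Cdkn1c and -0.15 to 0.040 for Rb1. The cause was not tested.

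The number of members above background on all 8 arrays, 1 at the 95th percentile of the negative controls, was 15 at their median, 0 at their 99th percentile and 14 at the highest GC-matched background probe set, a level added after seeing the data. With 150 bases before the start, the CHR motif was in 0.0% of inhibitor windows. Signal near the negative controls limits what the array can show for most mitotic genes.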
